A study of Homo sapiens with 6 samples.

Results

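The HMGA and HMGB genes encode high-mobility-group proteins, small abundant chromatin proteins that bend and open DNA. Here they comprise HMGA1, HMGA2, HMGB1, HMGB2 and HMGB3. Their 20 probe sets, of 54613 on the array without controls, were found by the platform annotation, which gives each of them exactly 1 symbol. The group was selected on measured values, since HMGA1 had been noted as higher on aligned fibers in the same comparison. Differences between aligned and random fibers are therefore given for all 5 genes as a description, with no test. The cells were U251, an established human glioma cell line, plated in medium with 10% serum on electrospun poly-caprolactone nanofibers and collected after 24 h. The fibers lay aligned in 3 cultures and in random directions in 3 cultures, described as independent, with 1 array each. All cultures are of the same line, so the spread between arrays covers cultures and not tumours.

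HMGA proteins grip the minor groove of AT-rich DNA with short AT-hook motifs and help transcription factors assemble on promoters and enhancers. They are high in the embryo, low in most adult tissue and high again in many tumours. HMGB proteins carry a pair of HMG boxes, which bend DNA, and an acidic tail. HMGB1 also leaves stressed or dying cells and then acts as an inflammatory signal, HMGB2 is abundant in dividing cells, and HMGB3 is best known from stem and progenitor cells.

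The RefSeq table of promoter windows (GRCh38.p14), each running from 250 bases before to 50 bases after an annotated start, held 7 windows for HMGA1, HMGB1 and HMGB3. The first listed window of each is shown because these genes lay on opposite sides of 0 in the comparison. Letters run 5′ to 3′ on the gene's strand. Capitals mark matches on either strand to 5 motifs that were searched: the GC box GGGCGG, the CCAAT box CCAAT, the TATA box TATAAA, the E-box CACGTG and the AP-1 site TGANTCA. The windows lie at chr6:34236623-34236922 on the plus strand for HMGA1, at chr13:30465887-30466186 on the minus strand for HMGB1 and at chrX:150983085-150983384 on the plus strand for HMGB3.
HMGA1: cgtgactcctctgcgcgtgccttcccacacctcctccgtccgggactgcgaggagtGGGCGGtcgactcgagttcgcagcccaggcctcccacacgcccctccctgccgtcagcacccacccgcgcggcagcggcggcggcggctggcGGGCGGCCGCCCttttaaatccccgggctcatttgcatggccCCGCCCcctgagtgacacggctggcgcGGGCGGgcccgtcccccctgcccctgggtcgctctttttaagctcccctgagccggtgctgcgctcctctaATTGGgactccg
HMGB1: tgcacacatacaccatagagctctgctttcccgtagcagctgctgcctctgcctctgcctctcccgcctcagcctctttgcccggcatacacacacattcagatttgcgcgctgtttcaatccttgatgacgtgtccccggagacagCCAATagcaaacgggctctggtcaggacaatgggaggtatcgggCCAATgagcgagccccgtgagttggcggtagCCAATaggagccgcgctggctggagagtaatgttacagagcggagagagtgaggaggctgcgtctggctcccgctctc
HMGB3: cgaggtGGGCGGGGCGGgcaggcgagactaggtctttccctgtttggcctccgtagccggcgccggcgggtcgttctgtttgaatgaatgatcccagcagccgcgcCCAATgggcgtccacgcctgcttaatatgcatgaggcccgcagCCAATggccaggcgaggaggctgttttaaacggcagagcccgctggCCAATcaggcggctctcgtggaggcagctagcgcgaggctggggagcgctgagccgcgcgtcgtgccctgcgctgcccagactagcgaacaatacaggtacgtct

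The HMGA1 window held 5 GC boxes, a pair of them adjoining, and 1 CCAAT box. The HMGB1 window held 3 CCAAT boxes and no GC box, and the HMGB3 window held 3 CCAAT boxes and 2 GC boxes. None of the 3 held a TATA box, an E-box or an AP-1 site with these letters. Of all 35116 windows of this length, 45.0% held a GC box, 34.6% a CCAAT box, 11.5% a TATA box, 7.26% an E-box and 7.71% an AP-1 site, and 15.8% held at least 3 GC boxes and 3.26% at least 3 CCAAT boxes. The other 4 windows of these genes held 0 or 1 CCAAT box, and their GC boxes numbered 0 in the second HMGA1 window, 9 and 2 in the HMGB1 windows and 11 in the second HMGB3 window.

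The array of aligned replicate 3 stood apart. Over the genes tested its values departed from the average random profile by 0.38 log2 units (root mean square), while aligned 1 departed by 0.17 and aligned 2 by 0.19, so values without it are given where they differ by over 1.5 times, and for the HMGA and HMGB genes. Of 10 glial and glioma markers 7 passed the filter on dim probe sets (VIM, NES, CD44, SOX2, FABP7, EGFR and GFAP), while S100B, OLIG2 and AQP4 were dim. Among markers of other cells, 6 of 7 neuron, 5 of 7 fibroblast, 2 of 5 endothelial, 2 of 7 leukocyte and 1 of 5 epithelial genes passed it, and PTPRC, CDH5, EPCAM and DCX were dim. Of those tested, 1 neuron gene was higher and 1 fibroblast and 1 epithelial gene were lower on aligned fibers at an unadjusted p under 0.05 in limma, and for the glial genes 1 was higher and 1 lower. Of all genes, 4.72% were higher and 5.81% lower at that level. The mean log2 level of the tested glial genes was lowest on aligned 3, at 10.38, against a lowest of 10.81 on random fibers. That of the fibroblast genes was 7.10 to 8.17 on aligned fibers, against 8.10 to 8.31 on random fibers. Among them PDGFRA differed by -1.94 (-0.90 without aligned 3) and COL1A2 by -0.56 (-0.17 without aligned 3). PDGFRA read 9.43, 8.77 and 5.95 on aligned fibers, against 9.87, 10.1 and 10.0 on random fibers. PDGFRB and COL1A1 differed by 0.11 and 0.07. The mean of the neuron genes was 6.72 to 6.87 on aligned fibers, against 6.57 to 6.73 on random fibers. The epithelial gene was at 6.47 to 6.64, against 6.85 to 6.92. All cultures were of 1 glioma line, so the list names do not mean that such other cells were present. The part of these genes in the results below was not tested.

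Of the 20 probe sets, 13 passed the filter, which kept a probe set that lay above the array's median on at least 3 of the 6 arrays. The 7 dim ones were 6 of the 9 for HMGA2 and 1 of the 2 for HMGB2. The 5 kept HMGA probe sets had a median log2 difference, aligned minus random, of 0.49 (range -0.00082 to 0.88), and the 8 kept HMGB probe sets a median of -0.17 (range -0.26 to -0.10). In 4 of the 13 kept probe sets, all of HMGA1 or HMGA2, every aligned array lay above every random array, where 7.61% of all kept probe sets did so. In 2 of the 13, both of HMGB1, every aligned array lay below every random array, where 8.86% of all kept probe sets did so. Probe sets of 1 gene read the same RNA and are not independent. By the brightest probe set of each gene, HMGA1 and HMGA2 lay above without overlap, where 8.71% of all genes did so. HMGB1 lay below without overlap, where 9.33% of all genes did so. These shares are the background of the comparison that the group was chosen by.

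**Figure D1:**
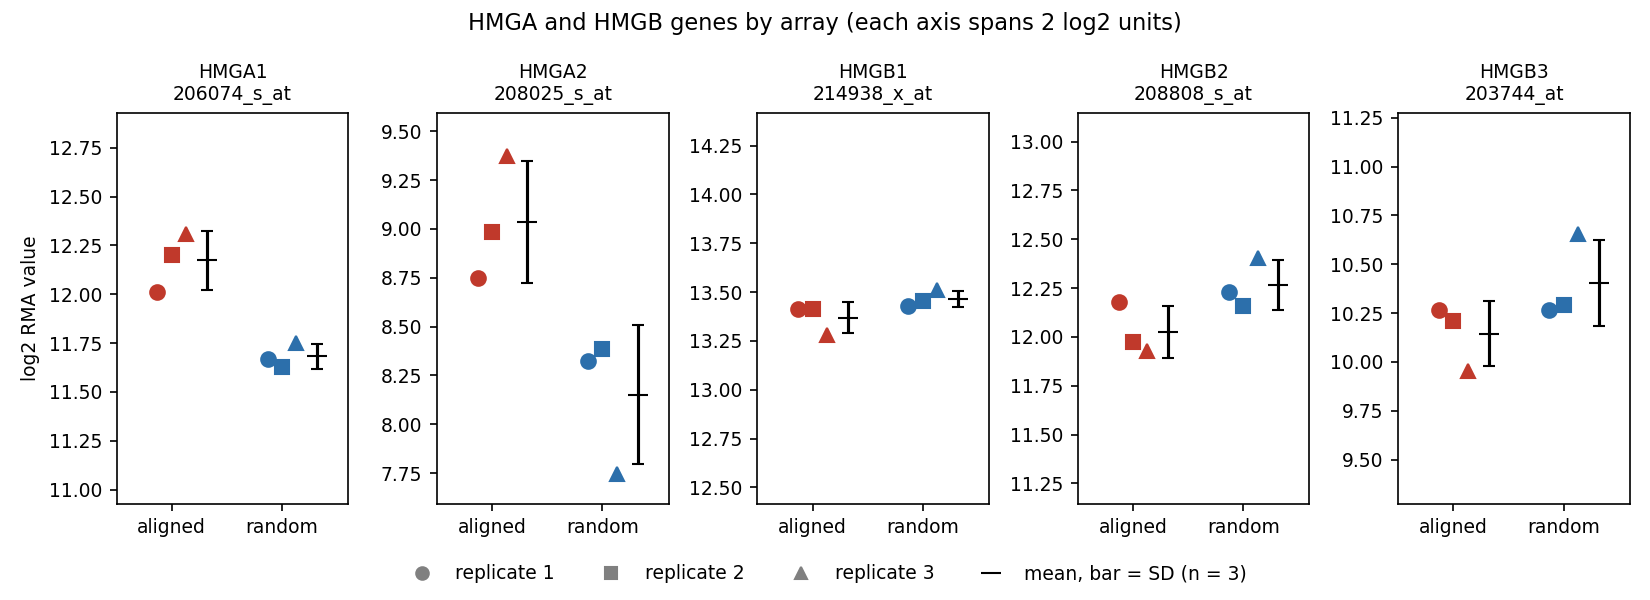
Log2 RMA value of each gene's brightest kept probe set on every array, with aligned fibers left of random fibers. Each symbol is 1 array, the bars give mean and SD of 3 arrays, and every axis spans 2 log2 units. The 3 aligned arrays lie above all random arrays for HMGA1 and HMGA2. For HMGB1, HMGB2 and HMGB3 aligned replicate 3 is the lowest array and random replicate 3 the highest.

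HMGA1, the architectural factor that was noted first, had the same order of groups in both of its probe sets. The brighter one, 206074_s_at, read 12.01, 12.20 and 12.31 on aligned fibers, against 11.67, 11.62 and 11.75 on random fibers. All aligned values lay above all random values, by a mean log2 difference of 0.49 ± 0.10 (SE, n = 3 each), or 1.41-fold. The second, 210457_x_at, read 8.61, 8.70 and 8.64 on aligned fibers, against 7.98, 7.99 and 8.33 on random fibers. It differed by 0.55 ± 0.11 (SE, n = 3 each), and the groups were again apart. Without aligned 3 the probe sets were at 0.42 and 0.55, so the difference did not rest on the distant array. Both names carry endings (s_at and x_at) for probes that can match more than 1 transcript. No other probe set covered HMGA1.

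HMGA2, the sister gene that is largely silent in adult tissue and is held down by let-7 microRNAs, was covered by 9 probe sets that did not all show the same picture. The brightest, 208025_s_at, read 8.75, 8.98 and 9.37 on aligned fibers, against 8.32, 8.39 and 7.74 on random fibers. Its groups did not overlap, with a log2 difference of 0.88 ± 0.21 (SE, n = 3 each), or 1.84-fold. The arrays numbered 3 lay at the extremes, with aligned 3 the highest and random 3 the lowest of all 6 values. It was at 0.71 without aligned 3 and at 0.68 without random 3.

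The probe set 1559891_at of HMGA2 read 5.94, 6.09 and 6.10 on aligned fibers, against 5.76, 5.75 and 5.54 on random fibers. These groups did not overlap either, and the difference was 0.36 ± 0.09 (SE, n = 3 each). It lay near the middle of its arrays, between the 48.5th and the 57.6th percentile. The third kept probe set, 1567224_at, read 6.81, 6.54 and 6.59 on aligned fibers, against 6.73, 6.70 and 6.51 on random fibers, and its groups overlapped with a difference of -0.00082 ± 0.10 (SE, n = 3 each). The HMGA2 difference therefore depended on the probe set that stood for the gene: the mean of the 3 kept probe sets differed by 0.41. The 6 dim probe sets differed by -0.04 to 0.26, and in 1 of them the groups did not overlap.

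**Figure D2:**
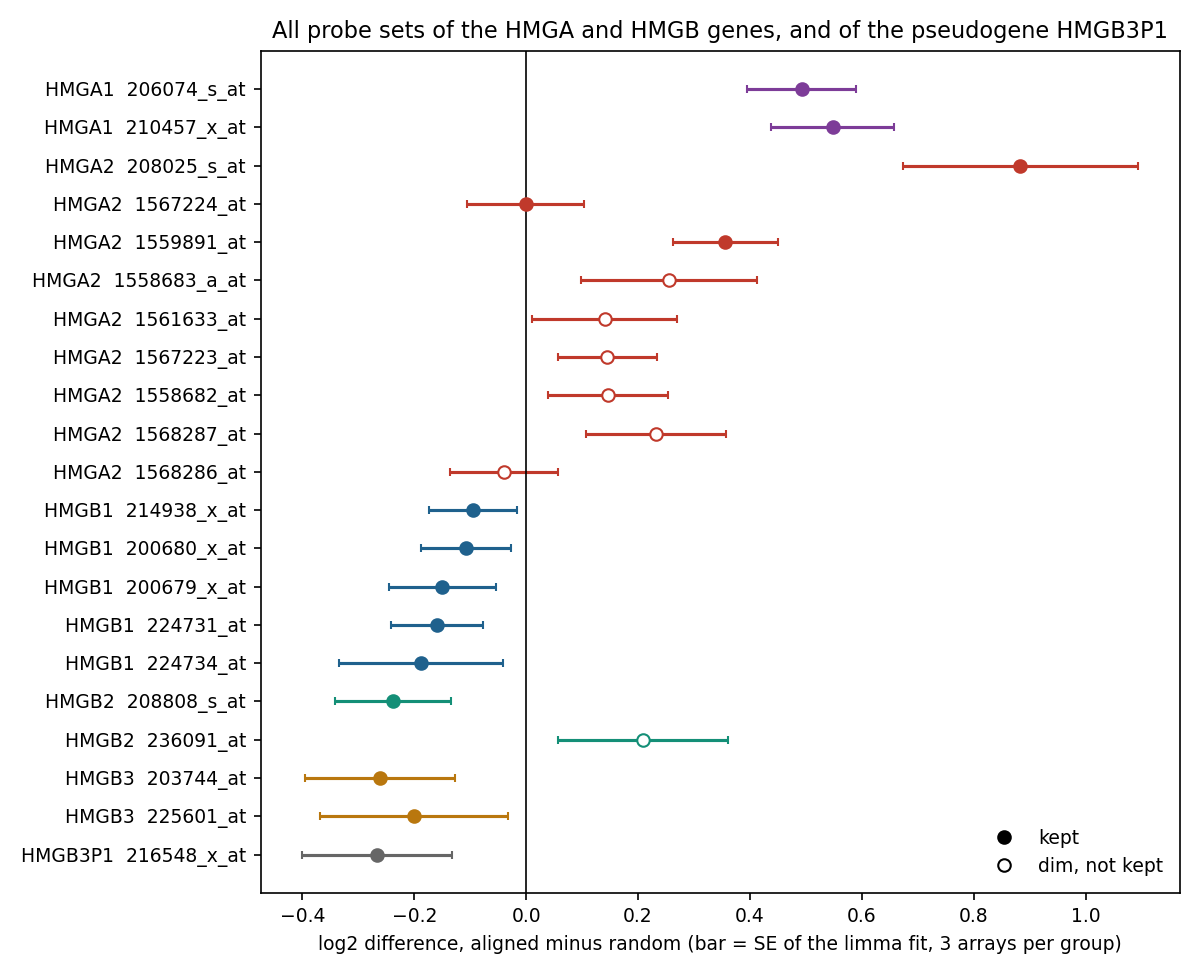
Log2 difference, aligned minus random, for all 20 probe sets and for the pseudogene HMGB3P1, with the SE of the limma fit as bars. Filled points are kept and open points are dim probe sets. Both HMGA1 probe sets and 2 of the 3 kept HMGA2 probe sets lie right of 0, and all 8 kept HMGB probe sets lie left of it.

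HMGB1, the most abundant of the HMGB proteins in most cells, had differences near the spread between arrays. Its brightest probe set, 214938_x_at, read 13.42, 13.41 and 13.28 on aligned fibers, against 13.43, 13.45 and 13.51 on random fibers. The groups were just apart, with a log2 difference of -0.10 ± 0.08 (SE, n = 3 each), and it was at -0.05 without aligned 3. The probe set 224731_at, whose suffix does not mark shared sequence, read 11.43, 11.38 and 11.28 on aligned fibers, against 11.46, 11.50 and 11.60 on random fibers. It differed by -0.16 ± 0.08 (SE, n = 3 each) without overlap. The other 3 probe sets, 200680_x_at, 200679_x_at and 224734_at, differed by -0.11, -0.15 and -0.19 with overlapping groups, and by -0.06, -0.09 and -0.04 without aligned 3. The brightest probe set lay between the 99.6th and the 99.7th percentile of its arrays, and 224734_at between the 86.2th and the 90.4th. Probe sets ending in x_at hold probes that match more than 1 transcript, and HMGB1 has many processed pseudogenes, so these values may include copies of the gene.

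HMGB2, which follows cell division in many tissues, had 1 kept probe set. The probe set 208808_s_at read 12.18, 11.98 and 11.93 on aligned fibers, against 12.23, 12.16 and 12.41 on random fibers. Aligned 1 lay above random 2, so the groups overlapped, and the log2 difference was -0.24 ± 0.10 (SE, n = 3 each). Without aligned 3 it was -0.19. The dim probe set 236091_at was on the other side, at 0.21 ± 0.15 (SE, n = 3 each), with values of 4.61, 5.08 and 4.62 on aligned fibers, against 4.36, 4.57 and 4.76 on random fibers.

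HMGB3 had 2 kept probe sets. The brighter, 203744_at, read 10.27, 10.21 and 9.95 on aligned fibers, against 10.27, 10.29 and 10.66 on random fibers. The values of aligned 1 and random 1 were identical to the last deposited digit, which occurred in 88 to 146 of 54613 probe sets in each of the 9 pairs of an aligned and a random array. The log2 difference was -0.26 ± 0.13 (SE, n = 3 each), and it was -0.17 without aligned 3. The second, 225601_at, read 9.48, 9.30 and 8.79 on aligned fibers, against 9.35, 9.43 and 9.40 on random fibers. It differed by -0.20 ± 0.17 (SE, n = 3 each), and without aligned 3 the difference was 0.0018, so the sign and size in this probe set came with aligned 3. The probe set of the pseudogene HMGB3P1, 216548_x_at, read 7.96, 7.81 and 7.44 on aligned fibers, against 7.98, 7.97 and 8.05 on random fibers, with a difference of -0.27 that became -0.12 without aligned 3.

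Arrays of the same replicate number showed where these differences lay. Between arrays numbered 1 the 8 kept HMGB probe sets differed by a median of -0.02 (range -0.05 to 0.18), and between arrays numbered 2 by a median of -0.10 (-0.18 to -0.03). Between arrays numbered 3 the median was -0.44 (-0.70 to -0.23), where both aligned 3 and random 3 enter. Without random 3 the brightest probe sets were at -0.07 for HMGB1, -0.17 for HMGB2 and -0.14 for HMGB3. The 5 kept HMGA probe sets had a median of 0.34 (range 0.08 to 0.63) between arrays numbered 1, of 0.57 (-0.16 to 0.70) between arrays numbered 2 and of 0.55 (0.08 to 1.63) between arrays numbered 3. HMGA1 thus differed between the groups in every pair, at 0.34, 0.57 and 0.56 for 206074_s_at and at 0.63, 0.70 and 0.31 for 210457_x_at. HMGA2 differed by 0.43, 0.60 and 1.63 for 208025_s_at and by 0.18, 0.34 and 0.55 for 1559891_at, but by 0.08, -0.16 and 0.08 for 1567224_at. Leaving out aligned 3 gave medians of 0.42 over the HMGA and -0.08 over the HMGB probe sets.

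**Figure D3:**
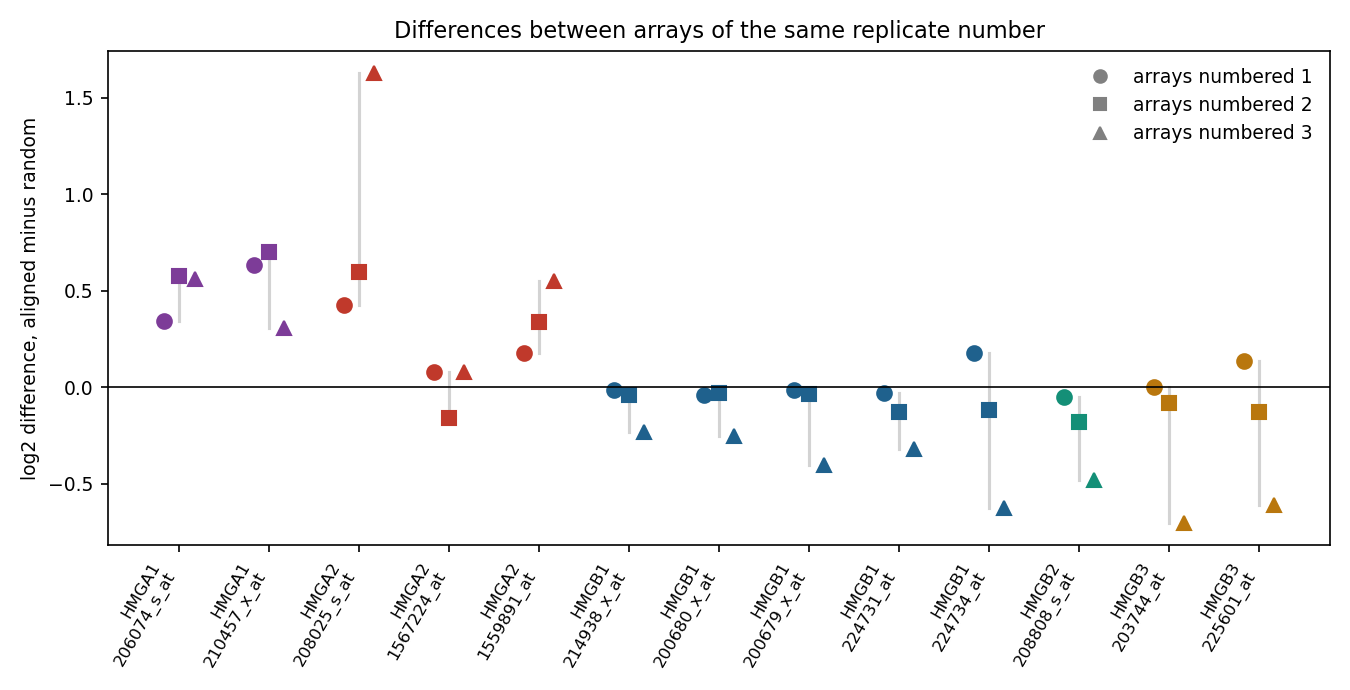
Log2 difference between the aligned and the random array of each replicate number, for the 13 kept probe sets. Symbols stand for the numbers 1, 2 and 3, and grey lines span them. HMGA1 lies above 0 in all 3 pairs, and the HMGB probe sets lie farthest below 0 between the arrays numbered 3, down to -0.70.

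HMGB2 is a gene of dividing cells, so proliferation markers are set beside the HMGB genes. The mean log2 value of 12 such markers was 10.66, 10.51 and 10.21 on aligned fibers, against 10.63, 10.70 and 11.03 on random fibers, so that aligned 3 was lowest and random 3 highest, as in the brightest probe set of each of the 3 HMGB genes. In limma 0 of the 12 passed the adjusted threshold, as 0% of all 12381 genes did, and 4 were lower at an unadjusted p under 0.05, where 5.81% of all genes were. With the replicate number as a block, 1 of the 12 was. The count was 7 without aligned 1, 2 without aligned 2 or without random 2, and 1 without aligned 3 or without random 3. It was 2 without probe sets ending in x_at or s_at, and 8 with array weights. PCNA, the clamp of the replication fork, read 11.82, 11.78 and 11.71 on aligned fibers, against 11.98, 12.02 and 11.98 on random fibers. Its log2 difference of -0.22 ± 0.07 (SE) kept the groups apart and was -0.19 without aligned 3. The mitotic genes KIF20A, TOP2A and CENPF differed by -0.68, -0.42 and -0.48, and by -0.45, -0.26 and -0.27 without aligned 3. The list's median was -0.30 with aligned 3 and -0.17 without it, against 0.01 over all genes tested. In RNA of whole cultures, fewer dividing cells and less of these transcripts per cell cannot be told apart. The part of proliferation in the HMGB values was not tested.

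The HMGN proteins, the third family of high-mobility-group proteins, bind nucleosomes and loosen compact chromatin. All 5 genes were tested and all 5 had negative differences, where 5879 of all 12381 genes had one. At an unadjusted p under 0.05 in limma 2 of them were lower (1 with the replicate number as a block), where 5.81% of all genes were. In the same fit 0 passed the adjusted threshold (adjusted p = 0.463 to 0.925). HMGN5 read 5.54, 5.41 and 5.08 on aligned fibers, against 5.68, 5.77 and 6.14 on random fibers, a log2 difference of -0.52 ± 0.16 (SE). The array medians were 5.63 to 5.66, so HMGN5 passed the filter only through the random arrays, where it was higher. HMGN3 read 11.68, 11.67 and 11.40 on aligned fibers, against 11.70, 11.87 and 12.07 on random fibers, a difference of -0.29 ± 0.12 (SE). HMGN2 differed by -0.17 ± 0.08 (SE). In these 3 genes every aligned array lay below every random array, where 9.33% of all genes did so. For HMGN5 that order was set by how it passed the filter. HMGN1 and HMGN4 overlapped, at -0.09 and -0.02. The median of the family was -0.17, and -0.14 without aligned 3. The count at an unadjusted p was 1 without aligned 2, aligned 3, random 2 or random 3. It was also 1 with a filter at the 75th percentile, and 0 without probe sets ending in x_at or s_at.

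Of 21 other HMG-box proteins, transcription factors and chromatin subunits that share the DNA-bending fold of HMGB, 17 were tested, with a median of -0.14. In limma 0 passed the adjusted threshold, 4 were lower at an unadjusted p under 0.05 and 0 were higher, where 5.81% of all genes were lower and 4.72% higher. Without random 2 the count was 2, without random 3 it was 1, and without probe sets ending in x_at or s_at it was 2. CIC, a repressor of genes induced by receptor tyrosine kinases, differed by -0.40 ± 0.11 (SE), with 8.41, 8.42 and 8.09 on aligned fibers, against 8.64, 8.69 and 8.80 on random fibers. TCF7L1, a mostly repressive partner of beta-catenin, differed by -0.50 ± 0.19 (SE) and by -0.29 without aligned 3, and the repressor HBP1 by -0.41 ± 0.16. TOX3 differed by -0.72 ± 0.29 (SE) and by -0.35 without aligned 3, where the median of the 17 was -0.08.

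Linker histones seal the DNA at the nucleosome and compete with HMG proteins for it. Of 9 listed, 3 were tested. H1-3 read 5.73, 5.72 and 5.86 on aligned fibers, against 5.48, 5.53 and 5.48 on random fibers, a log2 difference of 0.27 ± 0.07 (SE). The array medians were 5.63 to 5.66, so H1-3 passed the filter only through the aligned arrays, where it was higher. It was the 1 gene of the list at an unadjusted p under 0.05 in limma, where 4.72% of all genes were higher, and its adjusted p was 0.463. With a filter at the 75th percentile the count was 0. H1-10 and H1-2 differed by -0.18 and -0.15 with overlapping groups, and H1-2 was at -0.02 without aligned 3.

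The let-7 microRNAs bind HMGA2 transcripts through their seed and lower them, and the LIN28 proteins block the maturation of let-7. The sequences of the 2 let-7 microRNAs whose precursors lie beside each other on chromosome 22, from RefSeq (GRCh38.p14), are shown because their host transcript MIRLET7BHG was on the array. Capitals mark the seed, bases 2 to 8.
hsa-let-7a-5p: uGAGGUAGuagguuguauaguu
hsa-let-7b-5p: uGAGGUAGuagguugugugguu

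All 9 mature microRNA names of the let-7 family in the table, miR-98 included, share this seed. The microRNAs themselves were not measured. MIRLET7BHG read 7.47, 7.72 and 7.06 on aligned fibers, against 7.57, 7.75 and 7.94 on random fibers, with overlapping groups and a log2 difference of -0.34 ± 0.17 (SE), or -0.16 without aligned 3. LIN28A and LIN28B were dim. Of 12 genes of this axis 10 were tested, and 1 of them, IGF2BP2, was higher at an unadjusted p under 0.05 in limma (adjusted p = 0.472), or 0 with the replicate block. At that level 4.72% of all genes were higher. IGF2BP2, an RNA-binding protein and a known target of HMGA2, read 10.29, 10.42 and 10.50 on aligned fibers, against 10.29, 10.19 and 10.09 on random fibers, a difference of 0.21 ± 0.09 (SE). TUT4, a terminal uridylyltransferase that acts with LIN28, was at -0.19 ± 0.09 (SE), and DIS3L2, which degrades the uridylated precursors, at 0.14 ± 0.10, or 0.05 without aligned 3. The list's median was 0.03, and 0.07 without aligned 3. Its count was 0 without random 2 or without random 3.

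Among 18 partners and regulated genes of the HMGA proteins 15 were tested, with a median of 0.0024 that was -0.04 without aligned 3, and 1 was higher at an unadjusted p under 0.05 in limma (adjusted p = 0.463). At that level 4.72% of all genes were higher. With the replicate block 2 genes had such a p, without aligned 1 there were 6, and without aligned 3 or without random 3 there were 0. The 1 gene on all arrays was SNAI2, a repressor of epithelial genes, which read 8.98, 8.89 and 9.30 on aligned fibers, against 8.80, 8.64 and 8.09 on random fibers. Its log2 difference was 0.54 ± 0.19 (SE) without overlap, where 8.71% of all genes lay higher without overlap. CEBPB, a transcription factor of the mesenchymal state in glioma, differed by 0.44 ± 0.20 (SE) and by 0.22 without aligned 3. ATF2 and RB1 differed by -0.21 and -0.20. ATF2 belongs to the enhanceosome that HMGA1 helps to assemble, and RB1 is bound by HMGA2.

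HMGB1 outside the cell binds the receptor RAGE, encoded by AGER, and Toll-like receptors. AGER, TLR2, CD14 and CXCR4 were dim here. Of the 7 tested genes of 14 listed, CD24, a surface protein that with SIGLEC10 dampens the response to HMGB1, was lower at an unadjusted p under 0.05 in limma (adjusted p = 0.463), and the list's median was 0.07. At that level 5.81% of all genes were lower. With the replicate block 2 genes of the list had such a p. CD24 read 8.27, 8.20 and 7.53 on aligned fibers, against 8.59, 8.79 and 8.35 on random fibers, a log2 difference of -0.58 ± 0.21 (SE) that was -0.35 without aligned 3. SIGLEC10, TLR4 and HAVCR2 differed by 0.24, -0.28 and 0.17 with overlapping groups, and TLR4 was at -0.17 without aligned 3. The count was 2 without aligned 1 and 0 without probe sets ending in x_at or s_at.

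Acetylation moves HMGB1 from the nucleus to the cytoplasm, and the exportin XPO1 carries it out. Of 11 genes for this step 10 were tested, 9 with negative differences and a median of -0.15. In limma 0 passed the adjusted threshold and 3 were lower at an unadjusted p under 0.05 (adjusted p = 0.463 to 0.472), where 5.81% of all genes were. The count was 1 without aligned 2 or without random 3, and 0 without random 2. It was also 1 with the mean of a gene's kept probe sets in place of the brightest. The acetyltransferase KAT2B read 8.05, 8.06 and 7.55 on aligned fibers, against 8.16, 8.39 and 8.54 on random fibers, a log2 difference of -0.48 ± 0.16 (SE). CREBBP, another acetyltransferase, read 8.13, 8.13 and 8.12 on aligned fibers, against 8.28, 8.34 and 8.30 on random fibers, and differed by -0.18 ± 0.06 (SE). The deacetylase HDAC4 differed by -0.40 ± 0.16 (SE), and EP300 by -0.15 ± 0.09. Without aligned 3 the median was -0.07, KAT2B was at -0.31, HDAC4 at -0.22 and EP300 at -0.09, while CREBBP was at -0.17. Of the SET complex, in which HMGB2 acts with a DNase, 5 of 6 genes were tested, 0 at an unadjusted p under 0.05, with differences of 0.14 for ANP32B, -0.09 for ANP32A, -0.05 for SET and 0.04 for NME1. Without aligned 3 these were 0.09, -0.05, -0.03 and -0.01, so NME1 changed sign.

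**Figure D4:**
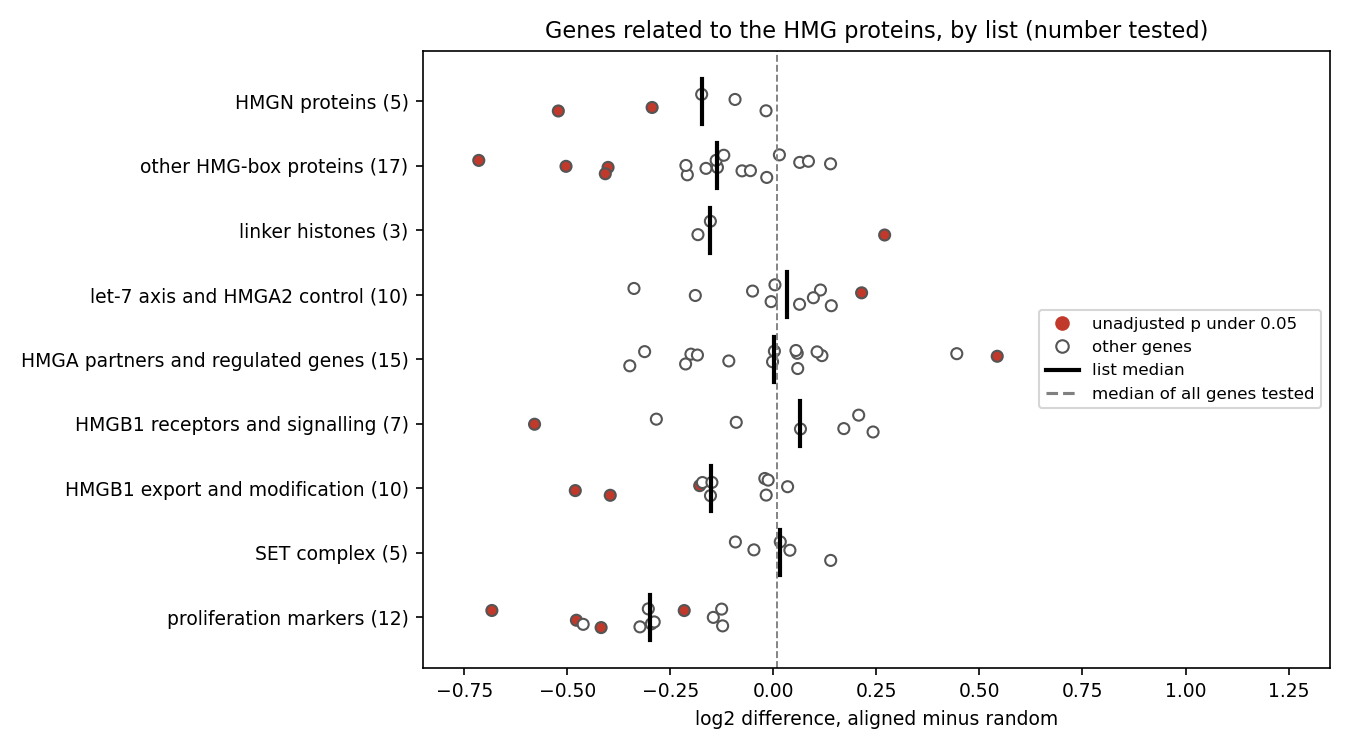
Log2 difference, aligned minus random, of each tested gene in 9 lists around the HMG proteins, with the number tested in brackets. Filled points had an unadjusted p under 0.05 in limma, bars mark list medians, and the dashed line is the median of all genes tested. The HMGN proteins and the proliferation markers lie left of 0 throughout, with medians of -0.17 and -0.30.

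Over the 9 lists, 17 of 84 tested genes had an unadjusted p under 0.05 in limma, where 10.5% of all genes had one, and 0 passed the adjusted threshold. Of these 17, 3 were higher and 14 lower, where 4.72% of all genes tested were higher and 5.81% lower. The 17 include H1-3 and HMGN5, which passed the filter only through the group where they were higher. Without aligned 3 the count of 17 became 10, without random 2 it was 8, without random 3 it was 6, and without aligned 1 it was 26. The lists were drawn up with earlier results of these data known, so the counts describe them only.

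The genes whose values over the 6 arrays were most like each of the 5 genes were found by Pearson correlation among 2551 or 2552 genes with an SD of at least 0.2. They share the same 6 arrays and the distant array aligned 3, and are given as a description. Nearest to HMGA1 were GEM (0.997), S1PR1 (0.990), ETS2 (0.989), VEGFC (0.984) and TMEM267 (0.967). Nearest to HMGA2 were CAMK2N1 (0.996), MET (0.996), PIK3CD (0.993), FHL2 (0.986) and MICAL2 (0.985). Nearest to HMGB1 were HMMR (0.995), FZD5 (0.995), LIFR (0.994), MATCAP2 (0.993) and SAMTOR (0.993). Nearest to HMGB2 were HSD17B11 (0.993), PHTF1 (0.990), TMEM107 (0.985), B4GAT1 (0.985) and HBP1 (0.984). Nearest to HMGB3 were CKAP2 (0.996), ATP8B3 (0.991), GTSE1 (0.989), KIFC1 (0.989) and DONSON (0.989). HBP1 was the 1 gene of these 25 that also stood on a list above.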

How the data were processed

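Total RNA of U251 glioma cells, from 3 aligned-fiber and 3 random-fiber cultures, was profiled with the HG-U133 Plus 2 array of Affymetrix, grouped and numbered by the sample titles. The authors made the deposited log2 values with RMA, per the submitters' processing notes. Its version is not given in the sources used here. RMA equalises the distributions of the arrays, so a difference is relative to the other probe sets of an array. The table holds no detection calls. Precision is limited by having 6 arrays. The SE of a gene's log2 difference had a median of 0.10.

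After 62 control probe sets were set aside, probe sets above the array's own median on 3 or more arrays were kept, which left 27621 of 54613. Genes came from the platform annotation, and probe sets with several symbols were not named. Each of 12381 genes was represented by its brightest kept probe set. Aligned minus random was fitted in limma 3.58.1 (lmFit, then eBayes, under R 4.3.3) across all genes and across all kept probe sets, with Benjamini-Hochberg adjustment at 0.05. Standard errors of the HMGA and HMGB probe sets are from the fit over probe sets, for dim ones without the filter. The code was tested on simulated data. Figures were drawn with matplotlib 3.10.9.

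The HMGA and HMGB genes and the 15 gene lists were chosen with earlier results of these data known. The listed genes named are the 4 with the smallest unadjusted p per list, all measured HMGN genes and linker histones, and for each HMGA or HMGB gene the 5 genes with the highest Pearson correlation. Among the alternatives were other filters, normalizations, priors and probe set rules, array weights, each array left out, and the replicate number as a block. Deviations from the group means correlated by 0.37, 0.32 and 0.11 between arrays numbered 1, 2 and 3. All lay above a limit of 0.1, so same-numbered arrays were set side by side as a description and in the block alternative. The main fit did not pair them. No label says what a number shares, and aligned 2 with random 3 gave 0.19.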

Additional observations from a re-analysis of the deposited data

How the results depend on the processing

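HMGA1 was higher on aligned fibers in all 14 alternatives that gave it a value, with log2 differences of 0.42 to 0.57, which is also the range over the arrays left out in turn. HMGA2 ranged from 0.68 to 1.03 over the left-out arrays, but was 0.41 as the mean of its kept probe sets, and without probe sets ending in x_at or s_at it turned to -0.00082, since 1567224_at then stood for it. HMGB1 was -0.16 without such probe sets and -0.12 to -0.05 over the left-out arrays. HMGB2 ranged over the left-out arrays from -0.31 to -0.17 and HMGB3 from -0.33 to -0.14. With array weights HMGB1 was -0.04 and HMGB3 -0.13, the smallest differences of any setting for these genes. HMGA1 and HMGB2 had no other kept probe set and gave no value without those endings. Arrays left out kept the probe sets chosen on all 6.

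The replicate number as a block left the 5 differences as they were, HMGA1 at 0.49, and called 0 genes after adjustment and 1687 at an unadjusted p under 0.05, against 1303 without it. Array weights, which give distant arrays less influence, called 2101 genes after adjustment, where every other alternative called 0, and the cause was not tested. At an unadjusted p under 0.05 they called 4326 genes, 6789 probe sets and 41 genes of the 9 lists, against 1303, 2676 and 17. The filter at the 75th percentile gave 851 of 7804 genes and 1380 of 13837 probe sets, and no filter gave 4698 of 54613 probe sets. The main counts are of 12381 genes and 27621 probe sets tested, so these counts also follow the number tested. Leaving out x_at and s_at probe sets gave 10 listed genes, with 9568 genes tested in all. Over the left-out arrays the counts were 624 to 2491 genes, 1262 to 4812 probe sets and 6 to 26 listed genes. Leaving out aligned 1 gave 2491 genes. Leaving out aligned 3 gave 815, random 2 gave 739 and random 3 gave 624.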
